A study of Mus musculus with 18 samples.

Results

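Chemokines and their receptors were followed in the hearts of mice after a permanent coronary ligation, as RNA levels in the deposited gene table. A row of the table was taken as a member when its gene name was one of the prefixes Ccl, Cxcl, Cx3cl, Xcl, Ccr, Cxcr, Cx3cr, Xcr or Ackr followed by a number and at most 1 letter. This rule gave 48 entries of the 12988 in the table, with 44 gene symbols: 31 ligands in 35 entries and 13 receptors in 13 entries. Ccl19, Ccl21a, Ccl21b and Ccl21c have 2 entries each, which lie on chromosome 4 or on scaffolds of the GRCm38 genome that are listed apart from the chromosomes.

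Mice were injected under the skin as newborns with an adeno-associated virus of serotype 9 (AAV9), either carrying the mouse gene Fgf17, which encodes a secreted growth factor of the FGF family, or as a control vector whose content the labels do not give. At 8 weeks of age the left anterior descending coronary artery was tied off for good (myocardial infarction, MI), or the animals had surgery that left the artery open (sham). The 18 heart libraries form 5 groups: sham with control vector (4 libraries), MI day 3 with control vector (4), MI day 3 with the Fgf17 vector (4), MI day 14 with control vector (3) and MI day 14 with the Fgf17 vector (3). Every animal thus carried a vector, no sham group received Fgf17, and the labels give the sham group no day, no strain or sex, no promoter for the vector and no region of the heart. They also do not say whether libraries came from separate animals, so the p-values below measure the spread between libraries, which may be technical. Libraries are named by the numbers in the table's column names, and values listed for a group follow that order (sham 1, 2, 4 and 5; MI day 3 1 to 4 with either vector; MI day 14 control 1, 2 and 4; MI day 14 FGF17 1, 3 and 4).

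Chemokines are small secreted proteins that bind G protein-coupled receptors on leukocytes and direct their movement. CC ligands such as Ccl2 act mainly on monocytes, macrophages and T cells, and CXC ligands with an ELR motif, such as Cxcl1 and Cxcl5, act mainly on neutrophils through Cxcr2. Atypical receptors of the Ackr group bind chemokines without G protein signalling, and some of them remove the bound ligand. After an infarct, neutrophils and Ccr2-bearing monocytes are known to enter the injured heart early, and macrophages and lymphocytes are known to remain during scar formation.

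Levels are given in FPKM (fragments per kilobase of transcript, scaled to the fragments mapped in the library), as mean ± SD over the libraries of a group. Changes are log2 differences ± SE of log2(FPKM + 0.5) from 1 limma fit over the 18 libraries, with p-values adjusted by the Benjamini-Hochberg method over the 12052 genes tested and a threshold of 0.05, and they understate the change of low genes. A gene was tested if it reached 1 FPKM in at least 3 libraries, and 43 of the 48 entries did, among them entries high in 1 group only. Ccl22, Ccl25, Ccr7, Cxcr3 and Ackr1 were not tested. Their third-highest library was at 0.566 (Ccl25) to 0.966 FPKM (Ccr7), while the lowest entries that were tested, Ccl19 on scaffold JH584294.1 and Xcl1, had 1.0 and 1.14 FPKM there. The depth of the libraries is unknown, since the table holds no counts.

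Fgf17 itself had 0 FPKM in every sham library, no more than 0.380 FPKM in the infarcted control libraries, and 47.0 to 75.6 FPKM (day 3) and 45.3 to 93.4 FPKM (day 14) with the Fgf17 vector. The median change over all genes tested was 0.25 at day 3 and 0.25 at day 14 against sham, and the changes below are to be read against it. When libraries were rescaled by the median of gene ratios, this shift became -0.01 and 0.01, and the genes called higher and lower went from 5535 and 1802 to 3613 and 3603 at day 3 and from 4940 and 1085 to 2949 and 2692 at day 14. The same rescaling took the calls between the vectors at day 14 from 438 higher and 721 lower to 610 and 665, and larger moves without single libraries are given with that comparison. Leaving out mitochondrially encoded genes took the calls for day 14 against day 3 from 1347 higher and 2208 lower to 2005 and 1722, and those for the difference of the vector effects from 13 and 31 to 15 and 89. Cardiomyocyte markers were abundant in every group, but 7 of 10 were lower at day 3 and 6 of 10 at day 14 than in sham with the control vector. Their summed level was 8138 to 9599 FPKM in sham, 5610 to 7006 FPKM at day 3 and 6619 to 7951 FPKM at day 14, and the part of this shift in the changes of the chemokines was not tested. MI day 3 FGF17 library 2 was the highest of its group for 25 of the 43 tested entries, and MI day 14 control library 1 for 31 of 43, so results that rest on either are also given without it.

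**Figure D1:**
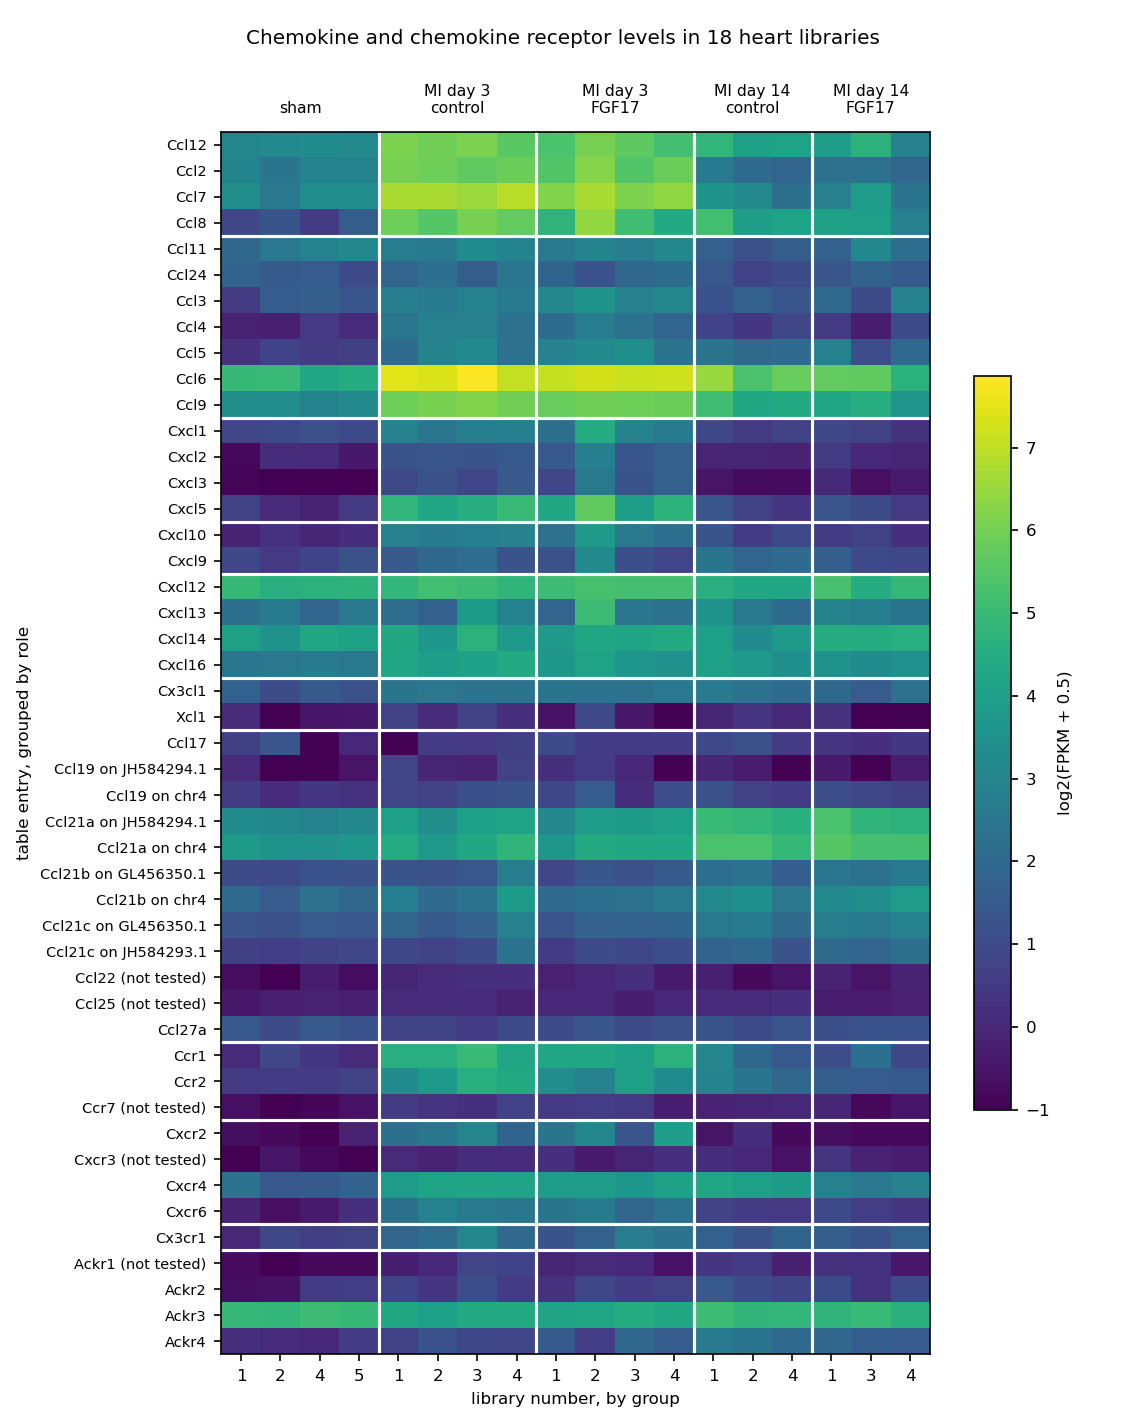
Level of 47 entries (rows, grouped by role) in each of the 18 libraries (columns, grouped by treatment), as log2(FPKM + 0.5) on the colour scale. The 4 monocyte-attracting CC ligands at the top are bright in both day 3 groups, Ccl21a is brightest at day 14, and Cxcl12, Cxcl14 and Ackr3 are high in every group.

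In sham hearts, few chemokines were abundant. In the sham libraries, Cxcl12, which retains Cxcr4-bearing cells and supports vessels, was at 26.2 ± 3.07 FPKM (n = 4) and Ccl6 at 25.6 ± 6.54 FPKM, and these did not differ beyond their spread. Cxcl14, a chemokine of epithelia and stroma, was at 15.3 ± 2.91 FPKM and Ccl21a on chromosome 4 at 11.98 ± 1.25 FPKM. Ackr3, the scavenging receptor of Cxcl12, was at 30.5 ± 2.13 FPKM, while every other receptor was below 5 FPKM. The summed level of the 35 ligand entries was 156 to 175 FPKM in sham libraries, 686 to 805 FPKM at day 3 with control vector and 259 to 401 FPKM at day 14 with control vector. The receptors summed to 37.1 to 41.7, 95.2 to 132 and 61.0 to 86.5 FPKM in the same groups, so that neither sum overlapped between any pair of the 3 groups.

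The shares of the ligands in the summed level differed between sham and the days after MI; these shares were not tested. Cxcl12 made up 16.0% ± 1.0 of the summed ligand FPKM in sham libraries, 4.26% ± 0.651 at day 3 and 6.68% ± 0.753 at day 14 with control vector. Ccl7 made up 5.28% ± 1.28, 14.5% ± 2.33 and 2.58% ± 0.803 in the same groups. The 2 Ccl21a entries together made up 12.3% ± 0.720, 4.73% ± 1.21 and 21.3% ± 3.87. Ccl6 was the ligand with the largest share at day 3, at 24.1% ± 4.09, and Ccl21a had the largest mean share at day 14. The Ccl21a share at day 14 did not exceed that of Ccl6, 19.4% ± 4.22, by more than the spread between libraries.

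**Figure D2:**
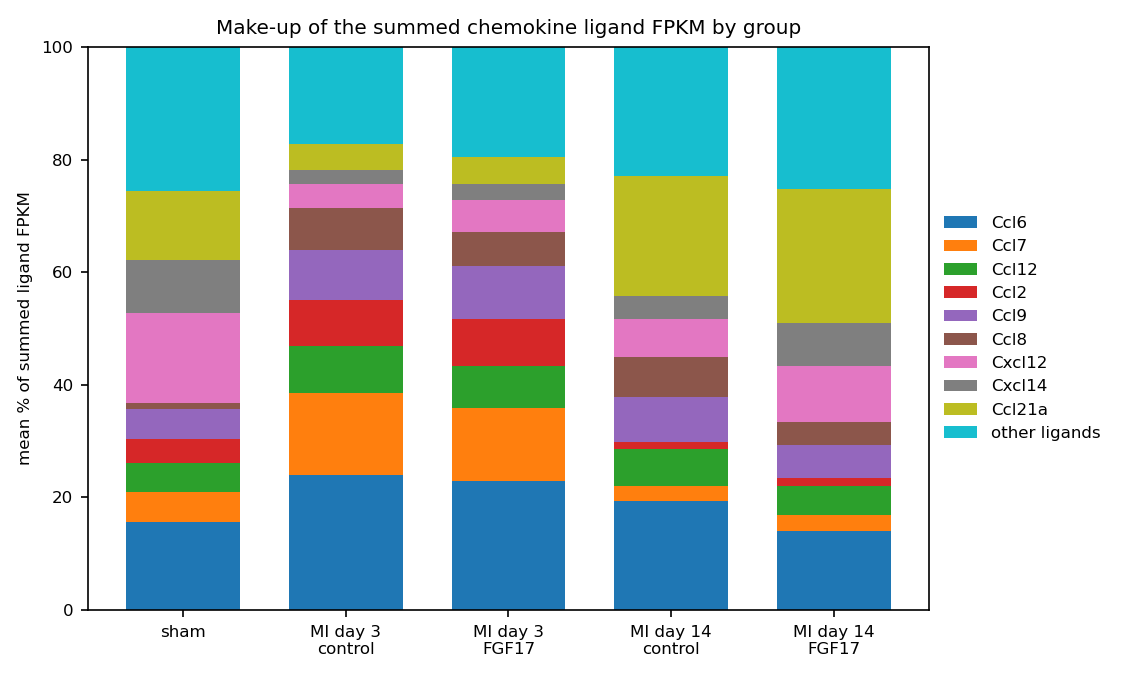
Mean percentage of the summed ligand FPKM (y axis) taken by 9 ligands and by all other ligands together in each group (x axis). The share of Ccl7 was 14.5% at day 3 with control vector against 5.28% in sham, and the share of Ccl21a was 21.3% at day 14 with control vector against 12.3% in sham.

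With the control vector, 3 days after MI, most chemokines and receptors were higher than in sham hearts. Of the 43 entries tested, 33 were higher (76.7%) and 2 lower (4.65%), against 45.9% higher and 15.0% lower (60.9% in either direction) among all genes tested. The 43 changes had a median of 1.44, against 0.25 for all genes. Copies of Ccl19 and Ccl21 that may share reads count as separate entries in these and later totals. The 4 libraries of each group did not overlap for 27 entries that were higher and 2 that were lower, where 42.1% and 12.2% of all genes had no overlap. Fewer cells of a type and less RNA per cell cannot be told apart in these bulk samples, here or below. Under median-of-ratios scaling 24 entries were higher and 2 lower.

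Of the monocyte-attracting CC ligands, 4 of 4 were higher. Ccl2, the main ligand of Ccr2, was at 7.49, 4.94, 7.28 and 7.37 FPKM in sham libraries and at 65.3, 59.8, 51.2 and 58.5 FPKM at day 3. Its change was 3.04 ± 0.19 (adjusted p = 6.34e-10). Ccl7, which also binds Ccr2, was at 9.89, 5.30, 9.68 and 9.78 FPKM in sham and at 105, 107, 91.9 and 119 FPKM at day 3, a change of 3.57 ± 0.30 (adjusted p = 1.68e-08). In both genes the lowest day 3 library was several times the highest sham library.

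Ccl12, a mouse ligand of Ccr2, went from 7.81, 8.72, 9.24 and 8.44 FPKM to 69.0, 61.7, 68.4 and 47.5 FPKM, a change of 2.77 ± 0.28 (adjusted p = 2.08e-07). Ccl8, which in the mouse is a ligand of Ccr8, had the largest change of all members tested. It was at 1.35, 1.94, 0.995 and 2.55 FPKM in sham and at 59.3, 46.0, 65.4 and 52.5 FPKM at day 3, a change of 4.71 ± 0.38 (adjusted p = 1.29e-08). The 4 genes lie in 1 stretch of chromosome 11 in the deposited coordinates (GRCm38), from Ccl2 at chr11:82035571-82037453 to Ccl8 at chr11:82115185-82116799. Ccl11, which did not pass the test at day 3, lies in the same stretch, at chr11:82057823-82062955.

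Among the other inflammatory CC ligands, 6 of 7 tested were higher and 1, the eosinophil attractant Ccl11, did not pass the test (6.0 ± 2.04 in sham, 7.16 ± 1.69 FPKM at day 3). Ccl6, made by myeloid cells, was the most abundant ligand at day 3, at 179, 167, 232 and 133 FPKM against 30.5, 31.8, 18.4 and 21.9 FPKM in sham. It rose by 2.78 ± 0.26 (adjusted p = 7.51e-08). Ccl9, a Ccr1 ligand of the mouse, rose by 2.81 ± 0.18 (adjusted p = 8.46e-10), from 8.91 ± 1.18 to 65.1 ± 6.14 FPKM. Ccl5, a product of T cells and platelets, rose by 2.06 ± 0.32 (adjusted p = 2.44e-05), from 1.01 ± 0.223 to 6.07 ± 2.33 FPKM. Ccl3 and Ccl4, products of activated macrophages, passed the test at lower levels, with Ccl4 at 0.559 ± 0.237 FPKM in sham and 5.78 ± 1.11 FPKM at day 3.

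The neutrophil-attracting CXC ligands were near the limit of the table in sham hearts, and 4 of 4 were higher at day 3. Cxcl5 was at 1.16, 0.564, 0.409 and 0.933 FPKM in sham and at 28.0, 19.4, 22.7 and 31.6 FPKM at day 3, a change of 4.37 ± 0.32 (adjusted p = 3.71e-09). Cxcl1 was at 1.31, 1.51, 1.80 and 1.49 FPKM in sham and at 7.16, 5.13, 6.63 and 6.54 FPKM at day 3, a change of 1.76 ± 0.32 (adjusted p = 1.41e-04). Cxcl2 and Cxcl3 reached 2.07 ± 0.176 and 1.71 ± 0.452 FPKM at day 3, so Cxcl5 had the highest level of the 4. Their shared receptor Cxcr2, which marks neutrophils, was listed at 0.135, 0.0859, 0 and 0.389 FPKM in sham and was at 4.38, 5.08, 7.63 and 3.10 FPKM at day 3, a change of 3.06 ± 0.40 (adjusted p = 4.33e-06). Of 12 neutrophil markers, 9 were in the table and tested, and 7 of these were higher at day 3. Their summed level was 7.72 to 31.9 FPKM in sham and 186 to 361 FPKM at day 3, and the part of neutrophil number in the change of Cxcr2 was not tested.

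The promoters of 3 of these neutrophil ligands, Cxcl1 to Cxcl3, were picked for display because they share 1 sequence stretch. The genes lie close together on chromosome 5 and moved together. RefSeq promoters (build GRCm38.p6, 250 bases before to 50 bases after the start of the gene, printed 5′ to 3′ on the gene's strand) were available within 300 bases of the table's start for 31 of the 48 entries. Cxcl5, which also lies on chromosome 5 and had the largest change of the neutrophil ligands, was not among these entries. Its promoter was therefore not searched. Capitals mark matches to the kappaB consensus, the site bound by NF-kappaB factors. Cxcl1 is at chr5:90890995-90891294, Cxcl2 at chr5:90903649-90903948 and Cxcl3 at chr5:90785851-90786150, all on the plus strand.
Cxcl1: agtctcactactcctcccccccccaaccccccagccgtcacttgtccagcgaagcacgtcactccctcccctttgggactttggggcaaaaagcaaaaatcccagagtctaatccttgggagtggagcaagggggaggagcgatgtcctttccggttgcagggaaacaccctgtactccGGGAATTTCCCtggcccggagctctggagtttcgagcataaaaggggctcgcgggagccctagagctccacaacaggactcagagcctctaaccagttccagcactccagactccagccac
Cxcl2: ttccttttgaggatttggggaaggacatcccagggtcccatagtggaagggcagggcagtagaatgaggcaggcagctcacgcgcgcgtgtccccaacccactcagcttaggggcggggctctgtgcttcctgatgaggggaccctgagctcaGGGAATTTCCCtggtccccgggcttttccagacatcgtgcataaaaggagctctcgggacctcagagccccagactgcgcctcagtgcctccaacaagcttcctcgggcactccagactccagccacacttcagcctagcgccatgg
Cxcl3: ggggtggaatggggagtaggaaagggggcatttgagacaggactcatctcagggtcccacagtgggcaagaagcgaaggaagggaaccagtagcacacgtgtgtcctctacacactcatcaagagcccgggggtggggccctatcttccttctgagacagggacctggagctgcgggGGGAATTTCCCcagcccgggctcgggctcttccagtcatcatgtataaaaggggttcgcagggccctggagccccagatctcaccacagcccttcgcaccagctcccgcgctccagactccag
In each of the 3 promoters the capitals hold 2 overlapping kappaB matches, 1 on each strand, and the stretch spans -71 to -61 from the start in Cxcl1, -97 to -87 in Cxcl2 and -73 to -63 in Cxcl3. On both strands, a kappaB match was found in 7 of the 31 member promoters (22.6%) and in 8.46% of all 32851 promoters in the table. The motif TGANTCA, the AP-1 site, was in 3 of 31 against 7.81%, TTCNNNGAA, a STAT site, in 2 of 31 against 8.30%, and TATAAA in 10 of 31 against 13.6%. A match is a description of letters and says nothing of binding in these hearts.

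Of the interferon-inducible ligands of Cxcr3, Cxcl10 was higher at day 3 and Cxcl9 did not pass the test. Cxcl10, which attracts T and NK cells, was at 0.418, 0.701, 0.458 and 0.614 FPKM in sham and at 6.76, 5.89, 6.51 and 7.06 FPKM at day 3, a change of 2.76 ± 0.25 (adjusted p = 6.09e-08). Cxcl9 was at 1.31 ± 0.368 and 2.90 ± 0.973 FPKM. The Cxcl10 promoter (chr5:92348840-92349139, minus strand) is shown because it holds both the kappaB consensus and the core of the interferon-stimulated response element (GAAA, any 2 bases, GAAA), each in capitals. The promoters of Ccl8 (chr11:82114935-82115234, plus strand) and Ccl12 (chr11:82101595-82101894, plus strand) are shown beside it because these ligands also rose at day 3 and, unlike Cxcl1 to Cxcl3, were still above sham at day 14, as described below.
Cxcl10: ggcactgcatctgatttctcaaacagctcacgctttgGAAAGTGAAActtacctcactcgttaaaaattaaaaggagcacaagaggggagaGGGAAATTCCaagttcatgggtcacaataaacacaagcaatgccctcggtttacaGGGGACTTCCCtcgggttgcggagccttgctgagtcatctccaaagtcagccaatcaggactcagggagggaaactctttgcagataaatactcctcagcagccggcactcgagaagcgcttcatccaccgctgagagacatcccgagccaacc
Ccl8: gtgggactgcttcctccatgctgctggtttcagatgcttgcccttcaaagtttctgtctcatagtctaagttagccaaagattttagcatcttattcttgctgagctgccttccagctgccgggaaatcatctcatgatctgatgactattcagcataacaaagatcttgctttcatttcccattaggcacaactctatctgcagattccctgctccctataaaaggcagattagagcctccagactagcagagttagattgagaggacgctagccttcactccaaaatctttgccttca
Ccl12: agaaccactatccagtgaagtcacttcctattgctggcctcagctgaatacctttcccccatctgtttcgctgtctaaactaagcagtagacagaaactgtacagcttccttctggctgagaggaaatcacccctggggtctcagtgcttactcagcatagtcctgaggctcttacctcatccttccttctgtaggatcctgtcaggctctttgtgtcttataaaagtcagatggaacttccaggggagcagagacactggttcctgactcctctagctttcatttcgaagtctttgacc
In Cxcl10, this response element core is at -213 to -204, and the kappaB matches are at -159 to -150 and, as 2 overlapping matches, at -104 to -94. Neither motif was found on either strand in these windows of Ccl8 and Ccl12, which hold TATAAA at -32 to -27 and -31 to -26. The response element core was in 3 of the 31 member promoters and in 3.44% of all promoters.

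Of the other ligands, Cxcl16 rose and Cxcl12 and Cxcl14 did not pass the test. Cxcl16, a membrane-bound ligand of Cxcr6, went from 5.36 ± 0.251 to 17.7 ± 2.58 FPKM, a rise of 1.62 ± 0.14 (adjusted p = 2.31e-08). The fractalkine gene Cx3cl1 was at 2.16 ± 0.586 and 4.87 ± 0.204 FPKM and passed the test. Cxcl12 at 31.2 ± 3.98 FPKM and Cxcl14 at 17.3 ± 6.23 FPKM did not pass it, with changes of 0.25 ± 0.14 (adjusted p = 0.14) and 0.14 ± 0.22 (adjusted p = 0.61), which are no larger than the median of all genes. Ccl27a, a ligand of Ccr10, was lower, from 1.99 ± 0.343 to 1.24 ± 0.216 FPKM. Calls of low entries were easily lost. Leaving out sham library 2 ended those of Ackr2, both Ccl19 entries, Ccl21b on chromosome 4, Ccl21c on GL456350.1 and Xcl1. Leaving out MI day 3 control library 4 ended those of Ccl19 and Ccl21b on chromosome 4, Ccl21c on GL456350.1, Ccl24 and Xcl1. Single calls of the same entries were also lost without sham library 1 (Ackr2), 4 (Ccl19 on JH584294.1, Xcl1) or 5 (Ccl21b on chromosome 4, Ccl24, Xcl1), or without MI day 3 control library 1 (Ackr2), 2 (Ccl24) or 3 (Ackr2, Ccl19 on chromosome 4).

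Of the 10 receptors tested, 9 were higher at day 3 and 1 was lower. Ccr1, a receptor of myeloid cells, was at 0.572, 1.34, 0.807 and 0.560 FPKM in sham and at 23.7, 23.5, 31.7 and 18.5 FPKM at day 3, a change of 4.25 ± 0.32 (adjusted p = 4.39e-09). Ccr2, which marks inflammatory monocytes, was at 0.916, 0.963, 0.988 and 1.13 FPKM in sham and at 9.25, 13.0, 23.4 and 20.5 FPKM at day 3, a change of 3.42 ± 0.27 (adjusted p = 7.85e-09). In both genes the sham and day 3 libraries did not overlap.

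Cxcr4, the receptor of Cxcl12 on most leukocytes, was at 4.41, 2.13, 2.34 and 2.94 FPKM in sham and at 14.5, 17.3, 17.4 and 16.6 FPKM at day 3, a rise of 2.33 ± 0.16 (adjusted p = 1.54e-09). Cxcr6, a receptor of T and NK cells, went from 0.366 ± 0.218 to 5.49 ± 1.10 FPKM and Cx3cr1, which marks patrolling monocytes and resident macrophages, from 1.02 ± 0.371 to 4.76 ± 2.32 FPKM, and both passed the test. The atypical receptor Ackr3 went the other way. It was at 29.4, 28.8, 33.6 and 30.2 FPKM in sham and at 19.3, 15.6, 20.5 and 20.9 FPKM at day 3, and it fell by 0.67 ± 0.11 on the log2 scale (adjusted p = 3.47e-05). Monocyte and macrophage markers moved with these receptors: 16 of 17 were higher, and their summed level was 284 to 316 FPKM in sham and 1597 to 1857 FPKM at day 3. Of 10 T cell markers in the table, 7 were tested and 6 were higher, with summed levels of 4.27 to 5.20 and 17.8 to 25.3 FPKM. The part of these cells in the receptor changes was not tested.

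**Figure D3:**
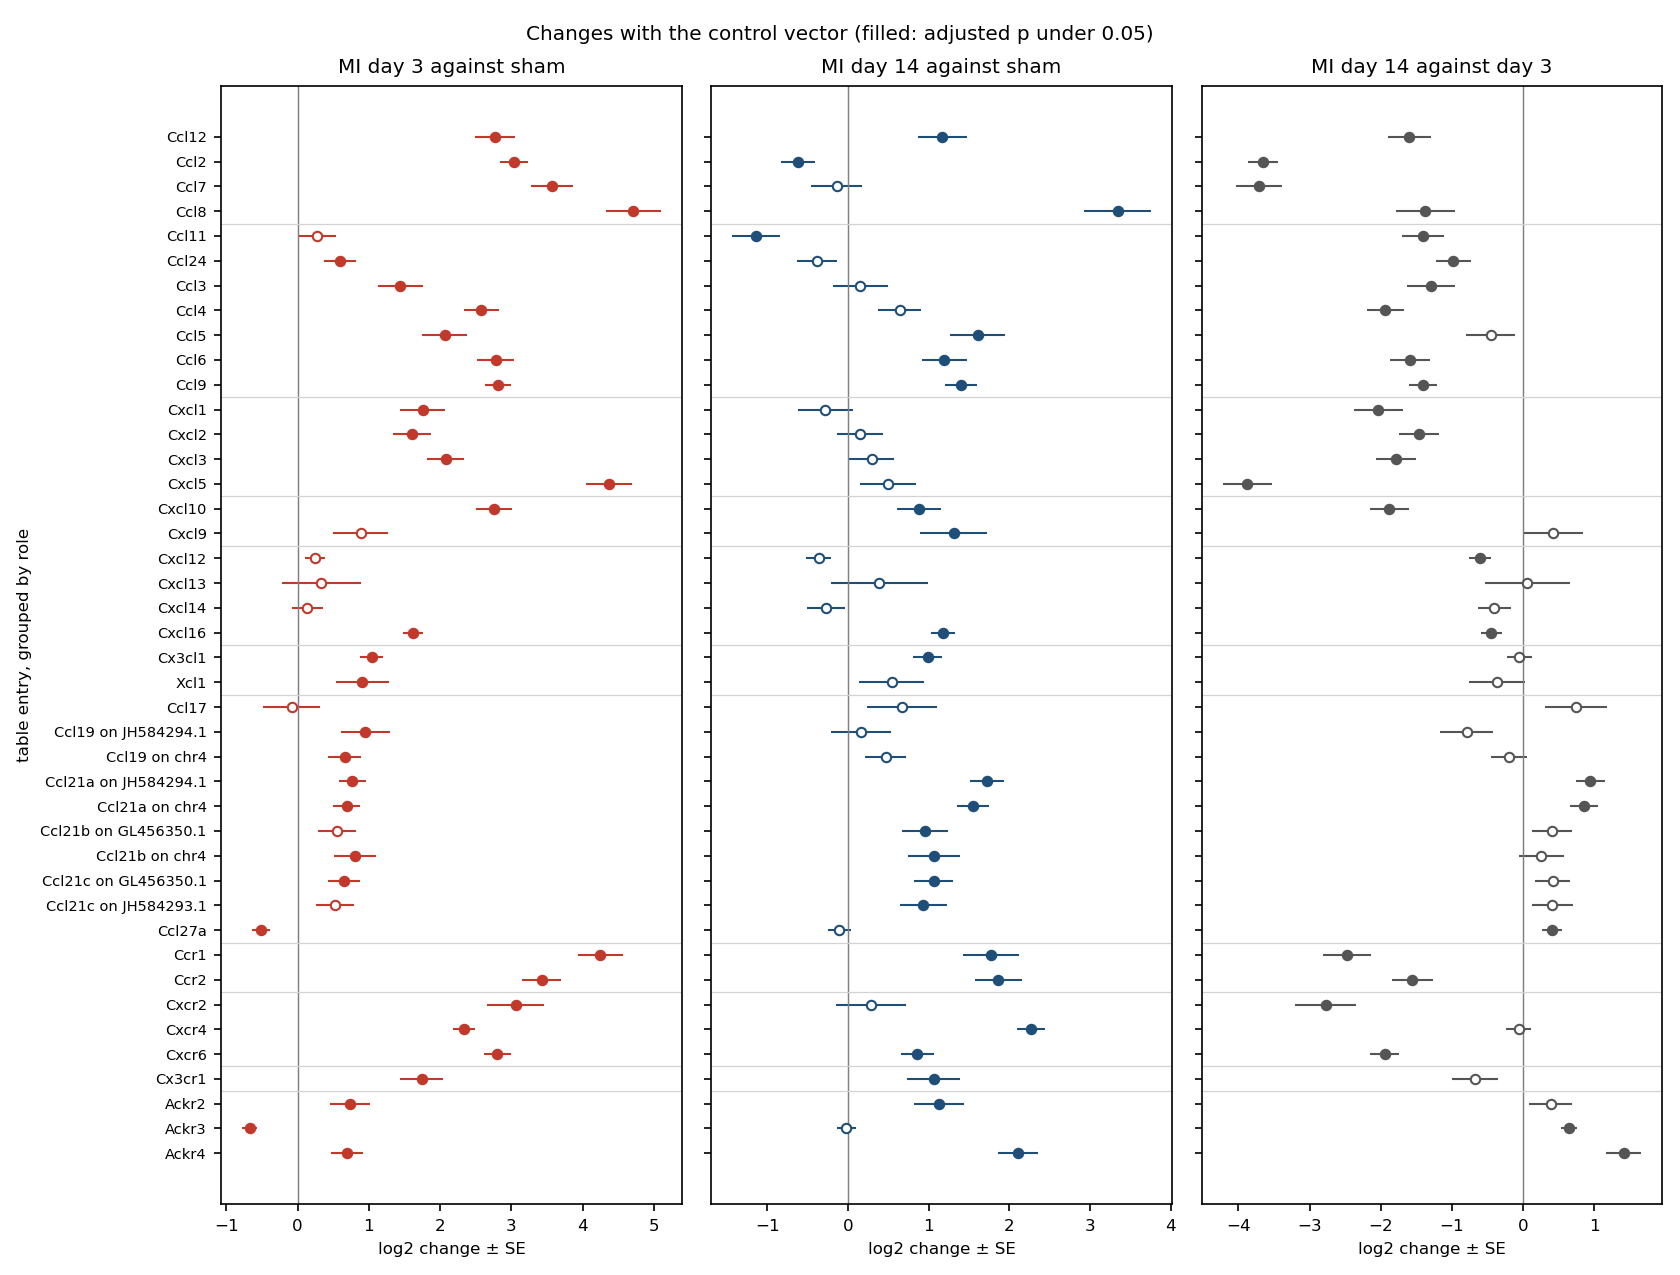
Log2 change ± SE (x axes) of 42 tested entries (rows, grouped by role) for MI day 3 against sham, MI day 14 against sham and MI day 14 against day 3, all with the control vector; filled points passed an adjusted p of 0.05. Ccl8 has the largest change at day 3 (4.71), Ackr3 and Ccl27a are the filled points below 0 there, and Cxcl5 (-3.88), Ccl7 (-3.71) and Ccl2 (-3.66) are the lowest points for day 14 against day 3.

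By day 14 after MI fewer members were above sham than at day 3. Against sham, 23 of the 43 entries tested were higher (53.5%) and 2 lower (4.65%), against 41.0% higher and 9.00% lower among all genes tested. The median change was 0.88, against 0.25 for all genes. Day 14 was also compared with day 3 directly: 22 entries were lower at day 14 (51.2%) and 5 higher (11.6%), against 18.3% lower and 11.2% higher (29.5% in either direction) among all genes. The sham libraries and the day 3 libraries each enter 2 of these 3 comparisons, so the comparisons are not independent of each other. The Ccl21a, Ccl21b and Ccl21c entries, which may not be separate measurements as described below, are all among the 23 above sham. Both Ccl21a entries are among the 5 above day 3. The shares of 53.5% and 11.6% may thus count near-copies more than once. Without MI day 14 control library 1, 21 entries were higher and 3 lower than sham, and 4 were higher and 22 lower than at day 3. Without MI day 3 control library 4, 8 rather than 5 were higher at day 14 than at day 3.

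Ccl2 and Ccl7 were no longer above their sham level. Ccl2 was at 5.95, 3.76 and 3.23 FPKM at day 14, a change from day 3 of -3.66 ± 0.21 (adjusted p = 3.85e-09). Against sham its change was -0.62 ± 0.21 (adjusted p = 0.021), although the groups overlapped. This last call was lost without sham library 1 (adjusted p = 0.052) or without MI day 14 control library 2 (0.077) or 4 (0.11). Ccl7 was at 11.6, 8.58 and 4.33 FPKM, a change of -3.71 ± 0.32 from day 3 (adjusted p = 2.53e-07) and of -0.14 ± 0.32 from sham (adjusted p = 0.74).

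The neutrophil ligands and Cxcr2 followed the same course, with 4 of 4 ligands lower than at day 3 and 0 of 4 higher than sham in the limma fit. None of the 4 had an unadjusted p under 0.05 against sham. Cxcl3 alone lay above every sham library, at 0.199, 0.102 and 0.0977 FPKM against 0.0624, 0, 0 and 0 FPKM. These levels are near the limit of the table, and 43.3% of all genes were higher without overlap. Cxcl5 was at 2.004, 1.15 and 0.760 FPKM at day 14, a change of -3.88 ± 0.35 from day 3 (adjusted p = 3.67e-07). Cxcl1 was at 1.18 ± 0.245 FPKM (n = 3), a change of -2.03 ± 0.34 from day 3 (adjusted p = 2.50e-04). Cxcr2 was at 0.215, 0.622 and 0.0815 FPKM, a change of -2.78 ± 0.43 from day 3 (adjusted p = 1.10e-04). Neutrophil markers summed to 15.6 to 32.2 FPKM at day 14, and 7 of the 9 tested were lower than at day 3. Against sham, 2 of the 9 were higher, where 41.0% of all genes were.

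Ccl8 and Ccl12, by contrast with Ccl2 and Ccl7, were still above sham. Ccl8 was at 35.8, 15.2 and 17.2 FPKM at day 14, a change of 3.34 ± 0.41 from sham (adjusted p = 5.89e-06) and of -1.37 ± 0.41 from day 3 (adjusted p = 0.018). The difference from day 3 was lost without MI day 14 control library 2 (adjusted p = 0.090) or 4 (0.082). Ccl12 was at 28.2, 15.9 and 17.3 FPKM, a change of 1.17 ± 0.30 from sham (adjusted p = 0.0042). In both genes library 1 was the highest of the 3, and the lowest still lay above every sham library.

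Ccl6 and Ccl9 also stood between their day 3 and sham levels. Ccl6 was at 89.6, 39.2 and 55.0 FPKM, a change of 1.19 ± 0.28 from sham (adjusted p = 0.0021) and of -1.58 ± 0.28 from day 3 (adjusted p = 3.74e-04). Ccl9 was at 35.1, 19.3 and 20.7 FPKM, a change of 1.40 ± 0.20 from sham (adjusted p = 2.22e-05). Cxcl16 was at 12.9 ± 2.79 FPKM, 1.17 ± 0.15 above sham (adjusted p = 7.67e-06) and at -0.45 ± 0.15 from day 3 (adjusted p = 0.031). The latter call was lost without MI day 3 control library 1 (adjusted p = 0.059) or 4 (0.085), without MI day 14 control library 2 (0.067) or 4 (0.20), with mitochondrially encoded genes left out (0.057) and in a fit of only the groups compared (0.082). Ccl5 was at 4.10 ± 0.645 FPKM and Cx3cl1 at 4.75 ± 1.09 FPKM. Both were above sham, and neither passed the test against day 3.

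Cxcr4 was above sham and did not pass the test against day 3. Its 3 day 14 control libraries were at 18.2, 15.6 and 13.6 FPKM, a change of 2.27 ± 0.17 from sham (adjusted p = 3.56e-08) and of -0.06 ± 0.17 from day 3 (adjusted p = 0.83). The day 3 and day 14 libraries overlapped. Ccr1 and Ccr2, by contrast, were lower than at day 3. Ccr2 was at 7.26, 4.99 and 3.29 FPKM, a change of 1.86 ± 0.29 from sham (adjusted p = 5.43e-05) and of -1.56 ± 0.29 from day 3 (adjusted p = 5.54e-04). Ccr1 was at 4.39 ± 2.83 FPKM, also above sham. Monocyte and macrophage markers summed to 893 to 1356 FPKM at day 14, with 16 of 17 above sham and 10 of 17 lower than at day 3.

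Some members were highest at day 14. Ccl21a on chromosome 4, a ligand of Ccr7 made by lymphatic vessels and lymphoid stroma, was at 13.6, 11.3, 10.8 and 12.2 FPKM in sham, 21.2, 13.2, 19.0 and 27.3 FPKM at day 3 and 39.6, 39.7 and 29.4 FPKM at day 14. The day 14 libraries all lay above the day 3 libraries. The change was 1.55 ± 0.20 from sham (adjusted p = 9.49e-06) and 0.86 ± 0.20 from day 3 (adjusted p = 0.0035). The earlier rise at day 3, 0.69 ± 0.19 (adjusted p = 0.0040), was lost under median-of-ratios scaling (adjusted p = 0.071). Its entry on JH584294.1 changed by 1.72 ± 0.21 from sham to day 14 (adjusted p = 5.18e-06). The Ccl21 entries may not be separate measurements. Over 402 aligned bases the chromosome 4 transcripts of Ccl21a (870 bases) and Ccl21b are 99.5% identical, so how reads were divided between them is uncertain. The transcripts of the other entries were not compared. All 6 Ccl21 entries were higher than sham at day 14, and those of Ccl21b on either sequence and of Ccl21c on JH584293.1 lost the call without MI day 14 control library 2 (adjusted p of 0.056 to 0.063). Of 6 lymphatic endothelial markers 5 were higher and 1 lower than sham, with summed levels of 59.2 to 79.9 FPKM in sham, 103 to 146 FPKM at day 3 and 109 to 145 FPKM at day 14. Their part in the Ccl21 change was not tested. Ccr7, the receptor of Ccl21 and Ccl19, was at no more than 1.20 FPKM in any library.

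Ackr4, which removes Ccl19 and Ccl21, was named for being among the 5 entries above their day 3 level, after its values were seen. It was at 0.676, 0.577, 0.525 and 0.995 FPKM in sham, 1.16, 1.88, 1.37 and 1.31 FPKM at day 3 and 5.58, 4.84 and 3.58 FPKM at day 14, with no overlap between any pair of groups. The change from day 3 to day 14 was 1.41 ± 0.25 (adjusted p = 3.16e-04). The other entries above their day 3 level were both Ccl21a entries, Ccl27a and Ackr3. Ackr3 was back at 34.3, 27.6 and 28.6 FPKM, 0.65 ± 0.11 above day 3 (adjusted p = 3.59e-04) and at -0.02 ± 0.11 from sham (adjusted p = 0.90). Ccl27a was at 1.82 ± 0.304 FPKM, and its difference from day 3 (0.41 ± 0.14, adjusted p = 0.032) was lost without MI day 3 control library 2 or 3 and without MI day 14 control library 1 or 4. Cxcl9 was also above sham at day 14, at 4.90, 3.23 and 3.82 FPKM against 1.36, 0.897, 1.22 and 1.79 FPKM, though not without MI day 14 control library 1 (adjusted p = 0.063), and that library also decided the call of Cxcl10 (adjusted p = 0.083 without it).

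Ccl11 was lower at day 14 than in sham. It was at 3.48, 5.38, 6.90 and 8.23 FPKM in sham and at 2.77, 1.77 and 2.56 FPKM at day 14, a change of -1.14 ± 0.29 (adjusted p = 0.0040), and the groups did not overlap. Cxcl12 was at 23.3, 18.7 and 18.7 FPKM at day 14, a change of -0.61 ± 0.15 from day 3 (adjusted p = 0.0056). Its change of -0.36 ± 0.15 from sham (adjusted p = 0.056) passed the threshold under median-of-ratios scaling (adjusted p = 0.0041), as did that of Ackr3 (adjusted p = 0.041).

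**Figure D4:**
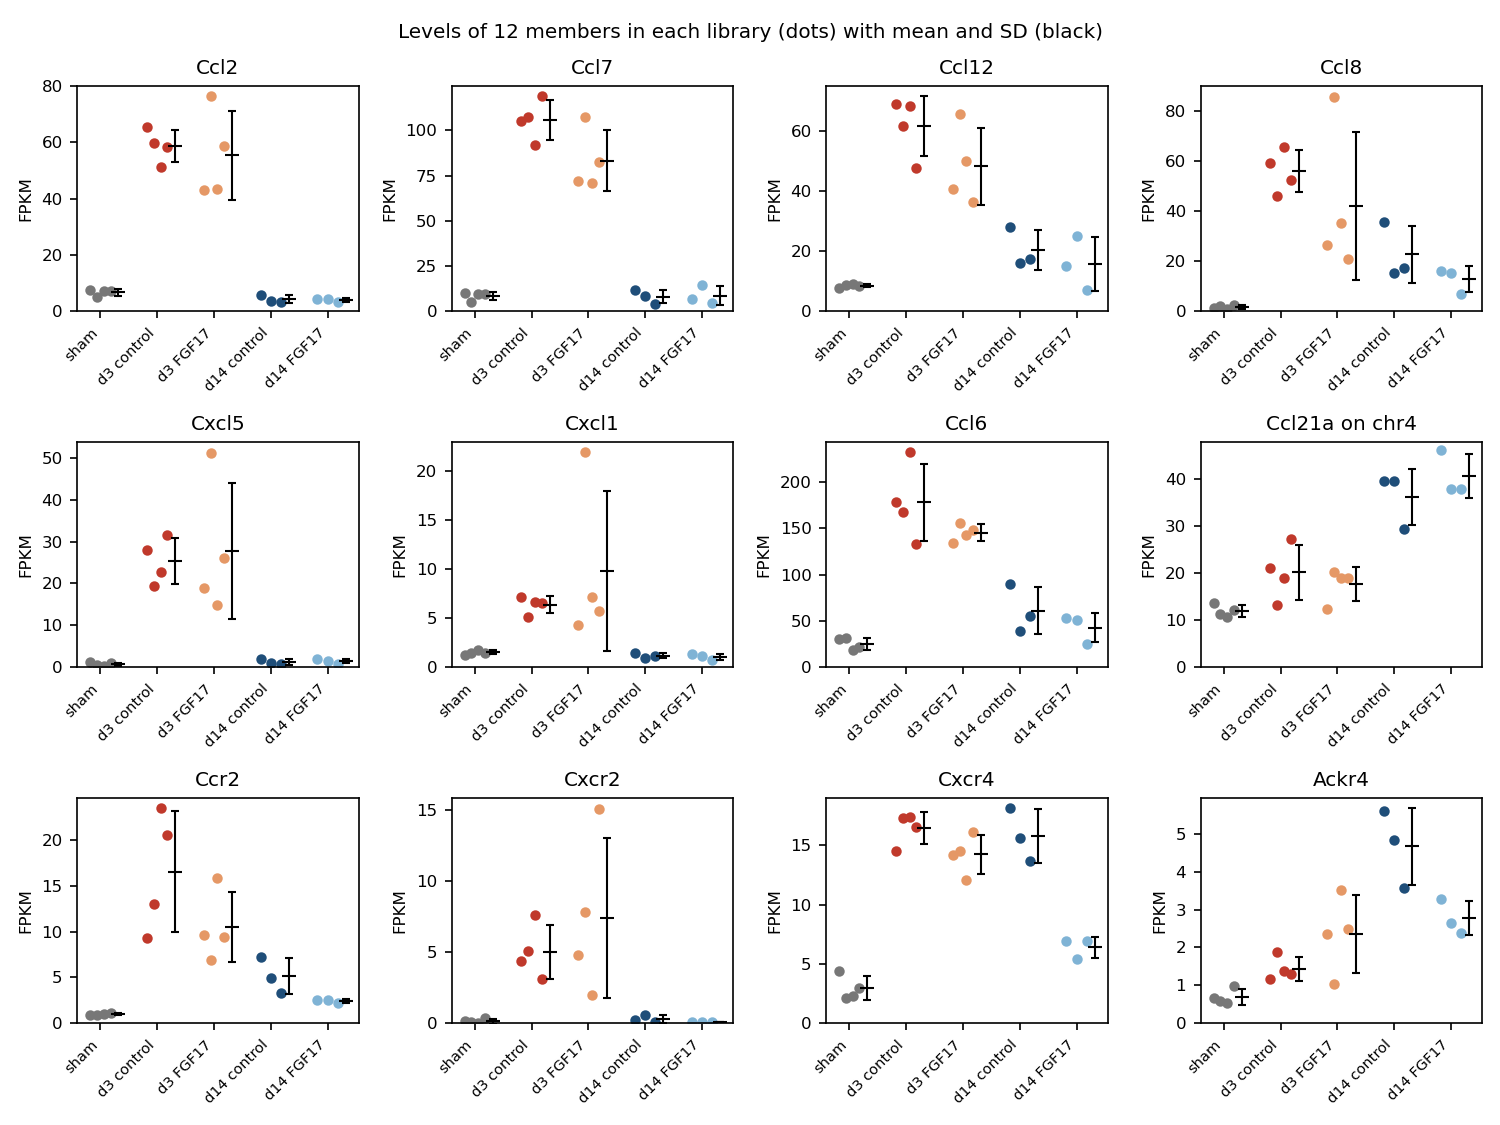
FPKM (y axes) of 12 members in each library (dots) with group mean and SD (black), by group (x axes). Ccl2, Ccl7, Cxcl5, Cxcl1 and Cxcr2 are high at day 3 and near the sham level at day 14, Ccl21a and Ackr4 are highest at day 14, and for Cxcr4 the 3 day 14 FGF17 libraries (5.40 to 6.95 FPKM) sit below the 3 day 14 control libraries (13.6 to 18.2 FPKM).

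No chemokine or receptor passed the test at day 3 between the Fgf17 and control vectors. In the limma fit 0 of 43 entries were higher or lower than with the control vector, 4 had an unadjusted p under 0.05, and 0.232% of all genes tested were called, 0.0581% higher and 0.174% lower. The 43 changes ran from -0.70 to 0.52. Cxcl16 had the smallest unadjusted p of the 4 and was at 12.4, 16.6, 12.2 and 10.7 FPKM with FGF17 and 17.96, 15.2, 16.4 and 21.1 FPKM with the control vector (-0.44 ± 0.14, adjusted p = 0.28). The others were Ccl27a (1.74 ± 0.265 against 1.24 ± 0.216 FPKM), Ccr2 (10.5 ± 3.81 against 16.5 ± 6.56 FPKM) and Ackr4 (2.35 ± 1.02 against 1.43 ± 0.309 FPKM). The groups did not overlap for Ccl27a alone, where 1.65% of all genes were higher and 3.84% lower without overlap.

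At this day 1 FGF17 library set the spread of several ligands. Library 2 was at 21.9 FPKM for Cxcl1 and its companions at 4.29, 7.22 and 5.78 FPKM. For Cxcl5 the 4 libraries were at 18.9, 51.2, 14.8 and 26.0 FPKM and for Ccl8 at 26.6, 85.6, 35.2 and 20.9 FPKM. For Cxcr2 library 4, not 2, was highest, at 15.1 FPKM against 4.81, 7.83 and 2.01 FPKM. The neutrophil markers summed to 164, 361, 89.2 and 403 FPKM in these 4 libraries, so the 2 libraries with the highest sums were 4 and 2. Without library 2, 0 entries still passed the test. The day 3 groups also differed in red cell markers, of which 2 of 7 were lower with FGF17: their sum was 4886 to 7941 FPKM with FGF17 and 15135 to 25733 FPKM with the control vector. The part of blood left in the tissue was not tested.

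**Figure D5:**
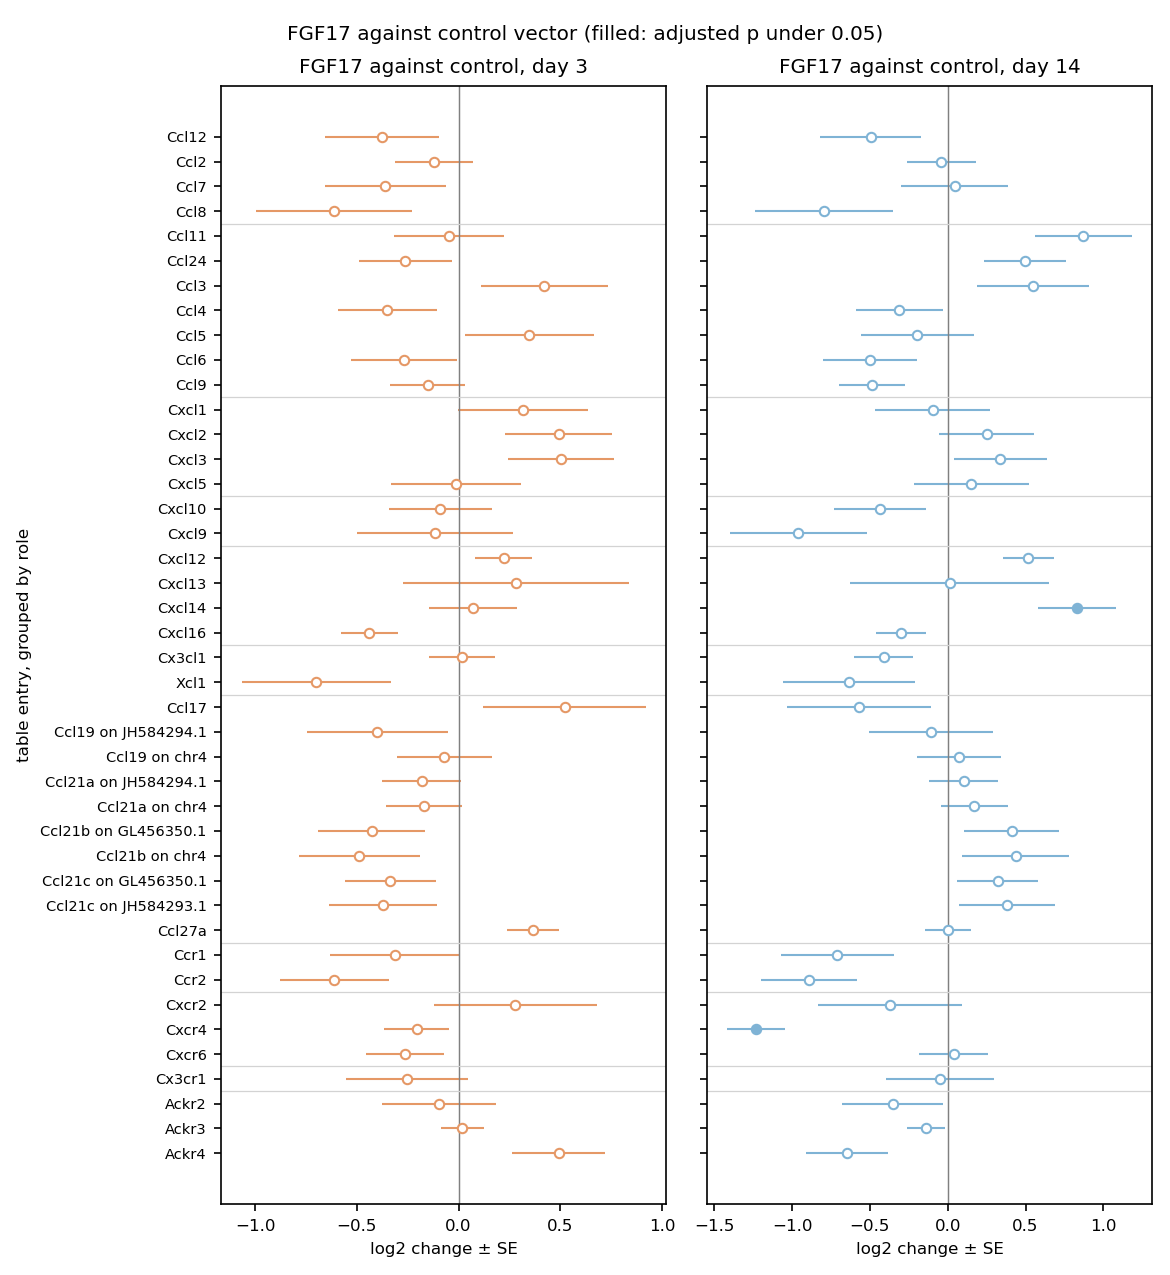
Log2 change ± SE (x axes) of 42 tested entries (rows, grouped by role) for FGF17 against the control vector at MI day 3 and at MI day 14; filled points passed an adjusted p of 0.05. No point is filled at day 3, and at day 14 Cxcr4 (-1.23) is filled below 0 and Cxcl14 (0.83) above 0.

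At day 14, Cxcr4 was lower and Cxcl14 higher with FGF17 than with the control vector. In all, the test called 1 entry higher (2.33%) and 2 lower (4.65%) of the 43 tested, against 3.63% higher and 5.98% lower (9.62% in either direction) among all genes tested, so the share of the family that was called was near that of all genes. The background itself rested on single libraries: the 438 genes higher and 721 lower became 103 and 126 without MI day 14 control library 1, 152 and 240 without library 2 and 503 and 1176 without library 4. They became 637 and 766, 137 and 241, and 244 and 576 without MI day 14 FGF17 library 1, 3 or 4, and 20 and 41 in a fit of only the groups compared. An unadjusted p under 0.05 was found for 10 entries. Between 3 and 3 libraries, 3 entries were higher and 6 lower without overlap, where 11.4% and 14.8% of all genes had none. Among the 6 were Ackr4 and Cxcl9, neither of which passed the test. Ackr4 was at 3.27, 2.65 and 2.39 FPKM with FGF17 against 5.58, 4.84 and 3.58 FPKM. Cxcl9 was at 2.70, 1.49 and 1.36 FPKM against 4.90, 3.23 and 3.82 FPKM.

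Cxcr4 was at 6.95, 5.40 and 6.92 FPKM with FGF17 and at 18.2, 15.6 and 13.6 FPKM with the control vector. Its change was -1.23 ± 0.18 (adjusted p = 0.0019), and it ranged from -1.33 to -1.12 when any 1 of the 6 libraries was left out, with the call kept in each case. The sham libraries, at 2.13 to 4.41 FPKM, lay below the FGF17 libraries. At day 3 Cxcr4 was at 14.2, 14.5, 12.1 and 16.1 FPKM with FGF17, overlapping the control libraries. The test of the difference between the vector effects at the 2 days gave -1.03 ± 0.24 (adjusted p = 0.071), so the effect was not shown to differ between days at the threshold, though it passed when MI day 14 control library 4 was left out (adjusted p = 0.041) and when mitochondrially encoded genes were left out (adjusted p = 0.045).

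Ccr1 and Ccr2 did not pass the test between the vectors at day 14. Ccr2 was at 2.57, 2.49 and 2.23 FPKM against 7.26, 4.99 and 3.29 FPKM (-0.89 ± 0.31, adjusted p = 0.075, and 0.029 without MI day 14 control library 4) and Ccr1 at 2.43 ± 1.57 against 4.39 ± 2.83 FPKM. Monocyte and macrophage markers had summed levels of 733 to 789 FPKM with FGF17 and 893 to 1356 FPKM with the control vector. Of these 17 markers 2 were called lower, against 5.98% of all genes. T cell markers summed to 9.98 to 14.5 against 13.0 to 20.2 FPKM, and 1 of the 7 tested was lower. The part of these cells in the receptor differences was not tested.

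Cxcl14 was at 22.1, 21.4 and 23.8 FPKM with FGF17 and at 15.6, 9.19 and 13.3 FPKM with the control vector, a change of 0.83 ± 0.25 (adjusted p = 0.046). The groups did not overlap. The call was lost when any 1 of the 6 libraries was left out, with adjusted p-values of 0.053 to 0.18. Cxcl12, the ligand of Cxcr4, was at 38.5, 21.9 and 29.2 FPKM against 23.3, 18.7 and 18.7 FPKM (0.52 ± 0.16, adjusted p = 0.052). It passed without MI day 14 FGF17 library 3 (adjusted p = 0.024). Ccl11 was at 2.88, 8.35 and 4.15 FPKM against 2.77, 1.77 and 2.56 FPKM (0.87 ± 0.31, adjusted p = 0.086) and passed without MI day 14 FGF17 library 1 (adjusted p = 0.027). Markers of other heart cells also differed between the vectors at day 14, where 3.63% of all genes tested were higher and 5.98% lower. Of 10 fibroblast markers 3 were lower with FGF17, with sums of 1169 to 1417 FPKM against 1356 to 1560 FPKM. Of 10 cardiomyocyte markers 2 were higher, with sums of 8038 to 9563 against 6619 to 7951 FPKM that did not overlap. The 4 adipocyte markers tested did not pass the test, and their sums of 28.1 to 53.9 against 64.4 to 109 FPKM did not overlap. Of 11 endothelial markers 1 was lower, with sums of 303 to 365.1 FPKM against 365.4 to 403 FPKM. The 6 mesothelium and epicardium markers did not pass the test, with sums of 17.5 to 18.7 against 19.4 to 37.3 FPKM. Sums of mural and of lymphatic endothelial markers overlapped. The part of these cells in the values of Cxcl14 and Cxcl12 was not tested.

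None of the ligands that were highest at day 3 passed the test between the vectors at day 14. Ccl2 was at 4.08 ± 0.648 FPKM with FGF17 (n = 3) and 4.31 ± 1.44 FPKM with the control vector, Ccl7 at 8.67 ± 5.06 and 8.15 ± 3.63 FPKM, and Cxcl5 at 1.49 ± 0.570 and 1.31 ± 0.636 FPKM. Ccl8 was at 16.2, 15.4 and 6.72 FPKM against 35.8, 15.2 and 17.2 FPKM, and Ccl6 at 52.9, 51.0 and 25.0 FPKM against 89.6, 39.2 and 55.0 FPKM, so for both the groups overlapped. Ccl21a on chromosome 4 was at 46.1, 37.9 and 37.8 FPKM against 39.6, 39.7 and 29.4 FPKM. The difference between the vector effects at the 2 days passed the test for 0 of 43 entries in the limma fit, with 6 at an unadjusted p under 0.05 and 0.365% of all genes called. It was called for Ackr4 when MI day 3 FGF17 library 2 was left out (adjusted p = 0.033, against 0.15 with it).

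Lists of genes that work with chemokines are to be read against the shares of all genes tested, which were 45.9% higher and 15.0% lower at day 3, 41.0% and 9.00% at day 14, 11.2% and 18.3% for day 14 against day 3, and 3.63% and 5.98% for FGF17 at day 14. Of 42 genes for signalling below leukocyte chemokine receptors, 40 were tested, 35 were higher and 0 lower at day 3, 29 and 0 at day 14, and 21 were lower at day 14 than at day 3. Vav1, an exchange factor for Rac, rose by 2.78 ± 0.10 (adjusted p = 1.05e-12) at day 3, from 0.704 ± 0.0494 to 7.76 ± 0.235 FPKM, and Ncf1, a subunit of the phagocyte oxidase, by 2.90 ± 0.14 (adjusted p = 3.72e-11). With FGF17 at day 14, 5 of the 40 were lower, against 5.98% of all genes, among them the Rac activator Elmo1 (-0.50 ± 0.10, adjusted p = 0.0060), the kinase Lyn (-0.56 ± 0.12, adjusted p = 0.012) and the G protein subunit Gng2 (-0.64 ± 0.14, adjusted p = 0.014). The median change of the 40 was -0.23 there, against -0.04 for all genes. Genes of this and the following lists were not examined one by one under the alternative settings. Over those settings the calls lower among all genes with FGF17 at day 14, 721 in the main fit, ran from 41 to 1176. The 41 came from a fit of only the groups compared and the 1176 from leaving out MI day 14 control library 4.

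Of 21 adhesion and rolling genes tested, 17 were higher and 1 lower at day 3 and 16 and 1 at day 14, where 45.9% and 41.0% of all genes were higher. Itgb2, the shared chain of the leukocyte integrins, rose by 3.34 ± 0.14 at day 3 (adjusted p = 3.12e-12), from 2.68 ± 0.636 to 31.3 ± 0.947 FPKM. With FGF17 at day 14, 1 of the 21 was lower and 1 higher, near the shares of all genes (5.98% and 3.63%): Itgb1 was lower (-0.41 ± 0.09, adjusted p = 0.012) and the adhesion protein Cd99l2 higher (0.30 ± 0.09, adjusted p = 0.039). Of 25 genes of the NF-kappaB pathway and its inducing cytokines tested, 20 were higher and 0 lower at day 3, and 14 and 0 at day 14, where 45.9% and 41.0% of all genes were higher. The TNF receptor Tnfrsf1b rose by 1.98 ± 0.13 at day 3 (adjusted p = 9.70e-10) and Tlr2 by 1.84 ± 0.16 (adjusted p = 2.21e-08). With FGF17 at day 14, 1 of the 25 was lower, no more than the 5.98% of all genes: the interferon gamma receptor chain Ifngr1 (-0.40 ± 0.09, adjusted p = 0.014).

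Of 19 genes for chemokine cleavage and presentation on heparan sulphate tested, 14 were higher and 1 lower at day 3, and 15 and 0 at day 14, where 45.9% and 41.0% of all genes were higher. Mmp14, a membrane protease, rose by 2.70 ± 0.11 at day 3 (adjusted p = 3.30e-12), and Mmp2, which can cleave chemokines, by 2.65 ± 0.15 at day 14 (adjusted p = 2.49e-09), from 14.9 ± 0.602 to 96.2 ± 9.90 FPKM. With FGF17 at day 14, 5 of the 19 were lower, against 5.98% of all genes, among them the syndecans Sdc2 (-0.46 ± 0.11, adjusted p = 0.016) and Sdc3 (-0.39 ± 0.10, adjusted p = 0.025) and Ext1, which builds heparan sulphate chains (-0.41 ± 0.11, adjusted p = 0.022). Of 9 relatives outside the naming pattern tested, 7 were higher and 1 lower at day 3. Pf4, a platelet and macrophage chemokine, rose by 2.54 ± 0.18 (adjusted p = 2.02e-09), from 29.0 ± 7.35 to 168 ± 10.5 FPKM, a level close to that of Ccl6. With FGF17 at day 3, 0 genes of these 5 lists passed the test in the limma fit.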

How the data were processed

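RNA of 18 mouse heart libraries was extracted with Trizol and made into libraries by Illumina protocols, per the labels' protocols. The authors deposited FPKM values per gene in 1 table. Per the submitters' processing notes, the tools were FastQC 0.11.7, cutadapt 1.17, HISAT2 2.1.0 and StringTie 1.3.3 with genome build GRCm38. FPKM divides by transcript length and library total, so an abundant gene lowers all others. Whether counting used strand is not given in the sources used here, so overlapping and antisense genes cannot be told apart. Reads of the Ccl19 and Ccl21 copies may have been split between entries. The depth per library is unknown. FPKM columns were matched to samples by the group in their names. The day 3 FGF17 columns give the vector in a shortened form, and column numbers differ from the replicate numbers of the labels. The number of columns of per-sample values not used was 0. One line of the table was empty and was not analysed here.

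From the deposited FPKM, log2(FPKM + 0.5) was fitted with limma 3.58.1 in R 4.3.3, with 1 mean per group and a mean-variance trend, after keeping genes at 1 FPKM or more in at least 3 libraries. Tests were two-sided and adjusted over all genes tested, with a threshold of 0.05. The fit was tested on simulated data. Alternatives were other pseudocounts and filters, 2 other scalings, a fit of only the groups compared, a replicate block, robust moderation and leaving out each library. Summing the entries of 1 symbol was added after seeing the data. Full statistics went to members whose mean reached 5 FPKM in either group of a comparison: the up to 8 largest rises and falls past the threshold and a constant set of 22 members. Up to 3 genes with the smallest p were named from each other list. For the FGF17 comparisons, alternatives were run for members chosen after their values were seen: those called, with an unadjusted p under 0.05 or with groups that did not overlap. The members and all gene lists were chosen with earlier results of these data known. One member entered the fit and the counts but is not reported here by itself.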

Additional observations from a re-analysis of the deposited data

Results flagged for a closer look

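In 144 groups of 4 libraries, the most extreme library was set against the others by Dixon's gap test, and 16 stood apart, where chance gives about 1 in 20. MI day 3 FGF17 library 2 was high for 5 ligands, Cxcl1 (21.9 FPKM), Cxcl2 (6.57), Cxcl9 (8.73), Cxcl10 (13.0) and Cxcl13 (33.3). In the same group, library 1 stood apart for Ccl17 (1.56 FPKM), Ccl21a on chromosome 4 (12.3) and Ccl21c on GL456350.1 (2.02), library 3 for Ccl25 (0.340) and library 4 for Ccr7 (0.340). Sham library 2 was low for Ccl2 (4.94 FPKM) and Ccl7 (5.30) and listed at 0 for Ackr1, and sham library 1 stood apart for Cxcl3 (0.0624). MI day 3 control library 4 stood apart for Ccl21b on GL456350.1 (6.21 FPKM) and Ccl21c on JH584293.1 (4.74).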

How the results depend on the processing

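Leaving out each library gave 27 to 34 members higher and 2 lower at day 3 against sham, 21 to 24 and 1 to 3 at day 14, 4 to 8 and 20 to 22 for day 14 against day 3, 0 to 1 and 1 to 3 for FGF17 at day 14, 0 and 0 for FGF17 at day 3, and 0 and 0 to 1 for the difference of the vector effects. Filtering at 5 FPKM gave 1 lower at day 3, 3 higher for day 14 against day 3 and 2 higher with FGF17 at day 14. At day 14 against sham, 4 were lower under median-of-ratios scaling, 3 with mitochondrially encoded genes left out or with only the groups compared, and 1 with the replicate block. With FGF17 at day 14, the fit of only the groups compared gave 0 higher and 1 lower. Leaving out mitochondrially encoded genes gave 1 lower for the difference. The causes were not tested.

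Over 15 pairs of same-numbered libraries the correlation of deviations ran from -0.155 to 0.263 and was over 0.1 in 3. With groups of 3 or 4 libraries these values cannot exclude a pairing by number. With the replicate block, 31 members were higher at day 3, and with FGF17 at day 14 0 were higher and 3 lower. There Cxcl14 lost its call (adjusted p = 0.13) and Ccr2 gained one (adjusted p = 0.046). Changes of sign concerned members that did not pass the test. Under median-of-ratios scaling Cxcl12 was at -0.055 and Cxcl14 at -0.16 at day 3. With mitochondrially encoded genes left out, Cxcl14 was at -0.0531 there, and Cx3cl1 and Cxcr4 at 0.031 and 0.028 for day 14 against day 3. With single libraries left out, Cxcl14 ran from -0.065 to 0.29 at day 3, Ackr3 from -0.11 to 0.039 and Ccl7 from -0.43 to 0.23 at day 14 against sham, and Cx3cl1 from -0.21 to 0.086 and Cxcr4 from -0.16 to 0.036 for day 14 against day 3. With 3 or 4 libraries a group and unknown depth, changes of members near 1 FPKM are the least certain.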
